A study of Rattus norvegicus with 30 samples.

Results

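The effect of isoflavone added to a casein diet was examined in rat liver by setting the 5 arrays of rats fed casein with isoflavone (CI) against the 5 arrays of rats fed casein alone (C). These 10 arrays, chosen by the diet in their titles, are part of 30 arrays from 6 diets, with 5 rats and 5 arrays per diet. All animals were male Sprague-Dawley rats that arrived at 4 weeks of age, received a commercial diet for 5 days and then an experimental diet for 14 days, and each diet held 200 g/kg of protein. In C and CI that protein was casein, and CI also held an isoflavone mixture at the level that comes with an all-tofu diet. The other groups were soy protein (S), soy protein with the same kind of isoflavone addition (SI), casein and freeze-dried tofu together (T10) and freeze-dried tofu alone (T20). The labels name no single isoflavone, give no intake or plasma level, and describe whole liver RNA on 1 array per animal. A change in cell composition and a change in RNA per cell therefore cannot be told apart in any result here.

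Isoflavones are plant polyphenols of the soybean, with genistein and daidzein as the best known. They resemble estradiol in shape and bind estrogen receptors, and they are conjugated to glucuronides and sulfates in the gut and liver before excretion. In the liver they have been studied for effects on lipid metabolism and on xenobiotic enzymes, often together with soy protein, which acts on the same pathways. The casein comparison asks what the isoflavone mixture does when no soy protein is present.

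The deposited values are linear intensities, 1 per probe set and array, where a probe set is the group of oligonucleotides that measures 1 transcript. They were raised to a floor of 16 and put on the log2 scale, on which a difference of 1 is 2-fold. Only probe sets brighter than the 40th percentile of the mean levels (an intensity of 167.6) were tested, which left 18625 probe sets for 10699 named genes. A gene is represented by its brightest tested probe set. Median intensities lay between 227.6 and 240.0 on the C arrays and between 227.2 and 254.7 on the CI arrays. Signal ratios of the 3′ to the 5′ control probe sets, a sign of RNA quality, were 1.01 to 1.19 in C and 1.04 to 1.14 in CI for GAPDH. For actin they were 2.21 to 2.65 in C and 1.84 to 2.89 in CI. The 10 markers that define hepatocytes summed to between 408651 and 507690 intensity units in C and between 431141 and 493664 in CI, while 8 of 10 exocrine pancreas markers lay below the filter. The labels list 1 and the same set of normalization parameters for C replicate 3 and CI replicate 3. Their values correlated at 0.966, within the range of 0.963 to 0.976 for pairs of a C and a CI array, so they are not copies of each other.

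Added isoflavone moved no gene past the threshold on the casein diet. Of the 18625 probe sets, 0 (0%) passed an adjusted p under 0.05 (limma with Benjamini-Hochberg adjustment over all tested probe sets). Among the 10 genes of smallest p in each direction were the steroid enzymes Hsd11b1 and Cyp17a1, with higher means in CI, and Tp53i11, Wipf1 and Actn4, with lower means. The unadjusted p was under 0.05 for 1605 probe sets (8.62%), and 5% of the tested probe sets are 931. Of these, 631 (3.39%) were higher in CI and 974 (5.23%) were lower. Leaving out C replicate 3 reduced the lower ones to 542, and leaving out both C replicate 3 and CI replicate 3 reduced them to 548. With each array centred on its own median, the same split was 314 higher and 2116 lower. The median difference of the 18625 tested probe sets was then -0.075, against -0.005 as deposited. Centring lowers all differences alike, and its part in that split was not tested. With quantile normalization the split was 564 higher and 1117 lower. With arrays set to equal median and spread it was 747 higher and 1101 lower.

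The arrays were precise enough to bound most genes. The median standard error of a difference was 0.13 on the log2 scale. The 95% interval left out a change of 2-fold in either direction for 17815 probe sets (95.7%), and of 1.5-fold for 14878 (79.9%). The split of directions moved with brightness. Among the dimmest of 4 equal brightness classes, 304 were higher and 144 lower at an unadjusted p under 0.05, with a median difference of 0.044. In the third class, between intensities of 490 and 1148, the counts were 69 higher and 324 lower, with a median of -0.032. In the brightest class they were 84 higher and 272 lower, with a median of -0.017. The part that brightness plays in the single differences was not tested.

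**Figure D1:**
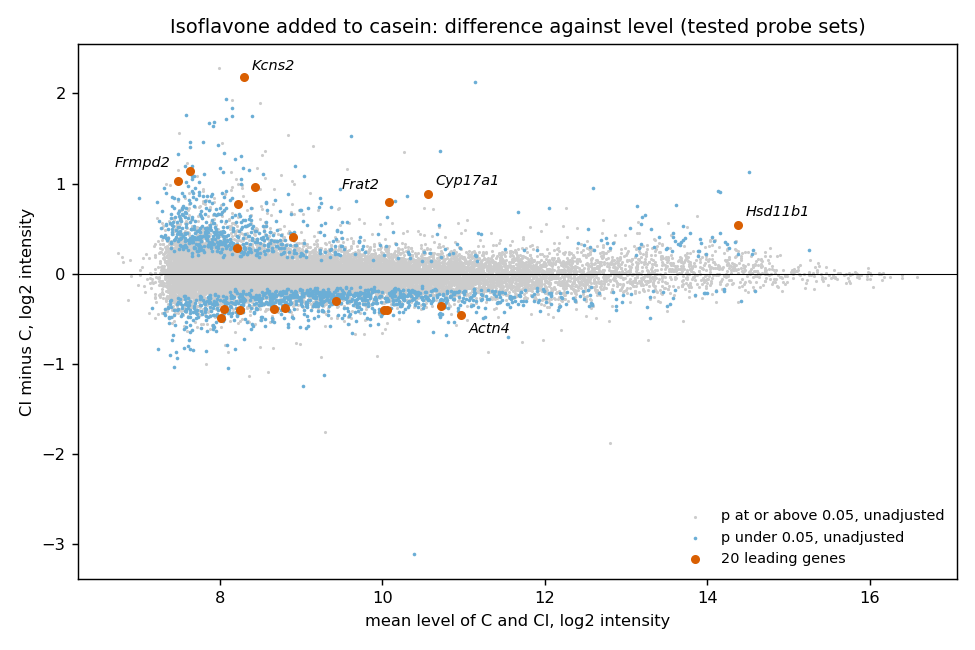
Difference between CI and C (log2 intensity, y axis) against the mean level of the 10 arrays (log2 intensity, x axis) for the 18625 tested probe sets. Grey points have an unadjusted p at or above 0.05 and blue points one under 0.05, and the 20 leading genes are orange; Kcns2 stands at 2.18 and Hsd11b1 is among the brightest genes at a difference of 0.54.

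The 10 genes of smallest p in each direction are described next; they were picked by these p-values, so their sizes are descriptions and none passed. The differences of the 10 higher genes had a median of 0.84 and adjusted p-values of 0.1343 to 0.3788 (limma, Benjamini-Hochberg). Those of the 10 lower genes had a median of -0.40 and adjusted p-values of 0.1343 to 0.3733. The CI arrays lay wholly above the C arrays for 9 of the 10 higher genes and wholly below them for 10 of the 10 lower ones. Over all 10699 genes, 36 (0.336%) lay wholly above and 178 (1.66%) wholly below. For 3 of the higher genes (Frmpd2, Kcns2 and Fam107a) the C mean was below the level of the filter on dim probe sets, so these were tested partly through their level in CI and other diets. Of the 20 leading genes, 3 had more than 1 tested probe set (Septin9, Wipf1 and Tmem132e). Their second probe sets differed in the same direction, by -0.26 ± 0.09, -0.23 ± 0.11 and 0.33 ± 0.17 (SE).

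**Figure D2:**
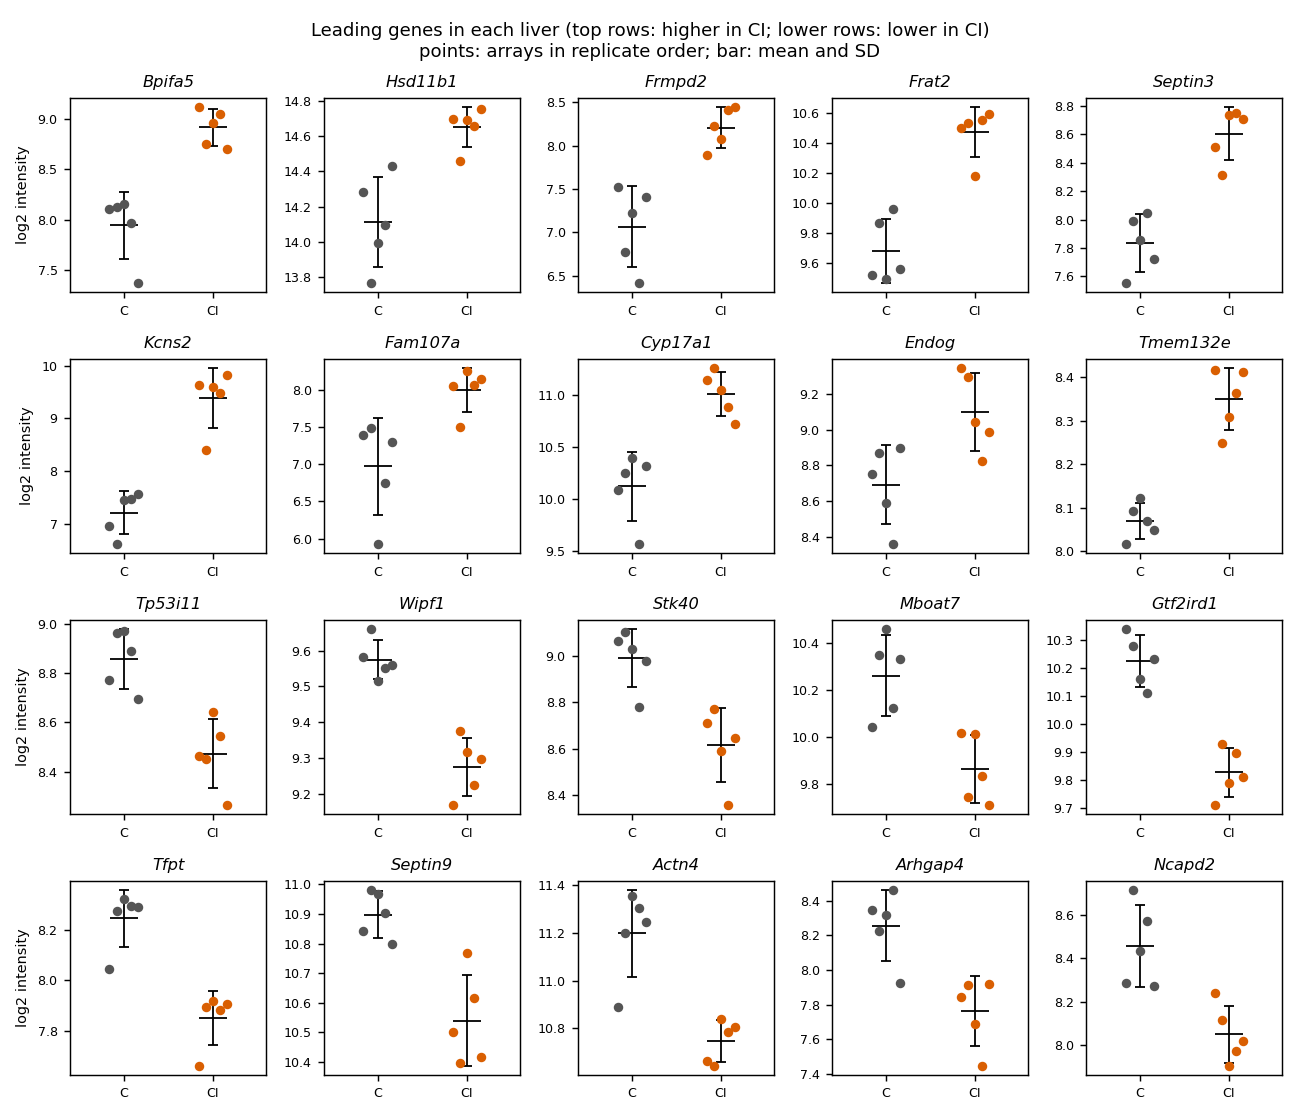
Intensities of the 20 leading genes on the 5 C and 5 CI arrays (points), in log2 intensity on an axis of its own for each gene, with mean and SD as bars. The upper rows hold the 10 genes with higher means in CI and the lower rows the 10 with lower means; the CI points lie clear of the C points for all but Endog, and none of the 20 passed the adjusted threshold.

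Hsd11b1 encodes the liver enzyme that regenerates active glucocorticoid from its inert form. On the C arrays its intensities were 19931, 13937, 16332, 17486 and 22051. On the CI arrays they were 26522, 22495, 26423, 25820.3 and 27654. All CI arrays were above all C arrays, though the lowest CI array stood just over the highest C array. The CI mean was 1.45-fold that of C, a difference of 0.54 ± 0.10 on the log2 scale (SE, n = 5 per diet, 95% interval 0.33 to 0.75). The adjusted p was 0.1343 (limma). The exact two-sided permutation test over all splits of the 10 arrays gave 0.007937, the smallest value it can give. Every gene whose groups do not overlap gets that value, so it adds nothing to the lack of overlap. Hsd11b1 passed under 2 of 23 alternatives, at an adjusted p of 0.03803 with array weights and of 0.01753 without C replicate 5.

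The other diets place this gene's low values in the casein group. Hsd11b1 was 28074 to 33220 in S, 30710 to 36076 in SI, 24324 to 31274 in T10 and 26837 to 35785 in T20. The 5 C arrays were the lowest 5 of all 30. Of 10699 genes, 1 (0.00935%) had all C arrays below the other 25, and that gene was Hsd11b1. The reverse, all C arrays above the other 25, was seen for 2 genes (0.0187%), Wipf1 and Ccnb2. The mean of CI, at 14.65 ± 0.11 (SD, n = 5) log2 units, lay 0.25 below the mean of the other 4 diets, and that of C, at 14.11 ± 0.26, lay 0.78 below it. These positions were looked at after the gene had been picked and were not tested.

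Cyp17a1, the steroid hydroxylase and lyase of androgen synthesis, had C intensities of 1083, 1210.4, 1341, 755 and 1271. Its CI intensities were 2263, 2445, 2104, 1881 and 1680. The groups did not overlap, and the CI mean was 1.85-fold that of C (difference 0.89 ± 0.24, SE, adjusted p = 0.3788 by limma). Here CI, and not C, was the group that stood apart. The medians were 1225 in S, 965 in SI, 1047 in T10 and 884 in T20, against 1210.4 in C and 2104 in CI. The highest single array among the other diets, in SI at 1741, overlapped with the lowest CI array.

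Frat2 binds glycogen synthase kinase 3 and acts in Wnt signalling. Its intensities were 734, 931, 721, 994 and 752 in C, and 1450, 1485, 1158, 1504 and 1547 in CI. The CI arrays were all higher, with 1 CI array well below its fellows, and the difference was 0.80 ± 0.17 (SE, adjusted p = 0.1343 by limma). Arrays of every other diet reached into the CI range, with 719.9 to 1300 in S, 744 to 1275 in SI, 1215 to 1506 in T10 and 833 to 1499 in T20.

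Septin3, a filament-forming GTPase best known from neurons, had intensities of 188, 255, 232, 264 and 211 in C, and 366, 319, 426, 431 and 418 in CI. The groups did not overlap, and the difference was 0.77 ± 0.16 (SE, adjusted p = 0.1343 by limma). Among the other diets 1 T10 array, at 328, reached into the CI range, and the medians were 243 in S, 258 in SI, 250 in T10 and 246 in T20.

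Frmpd2, a scaffold protein with FERM and PDZ domains, read 184, 109, 149, 85.1 and 169.9 in C and 238, 299, 269, 341 and 349 in CI, and the groups did not overlap. Its difference was 1.14 ± 0.23 (SE, adjusted p = 0.1343 by limma). Fam107a, an actin-binding protein that responds to stress and glucocorticoid, read 168, 179, 60.8, 108 and 158 in C and 265, 181, 306, 267 and 283 in CI. The lowest CI array was just above the highest C array, and the difference was 1.03 ± 0.26 (SE, adjusted p = 0.3733). Endog, the mitochondrial endonuclease G, and the membrane protein Tmem132e differed by 0.41 ± 0.11 and 0.28 ± 0.08 (SE, adjusted p = 0.3788 for each, limma). Endog was the leading higher gene whose groups overlapped, with an exact permutation p of 0.02381.

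The 10 genes with lower means in CI had a smaller median difference than the 10 with higher means, in size. Wipf1, which holds the actin regulator WASP in its stable complex, read 767, 809.7, 732, 751 and 755 in C and 575, 664, 638, 597 and 629 in CI. The groups were separate and both were tight, with SDs of 0.05 and 0.08 log2 units. The difference was -0.30 ± 0.07 (SE, adjusted p = 0.249 by limma). In the other 4 diets Wipf1 ranged from 575 to 730.2, so the C arrays were the highest 5 of the 30.

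Actn4, an actin cross-linker, read 1898, 2350.2, 2619.6, 2529 and 2429 in C and 1620, 1597, 1831, 1765 and 1789.5 in CI, with no overlap and a difference of -0.45 ± 0.12 (SE, adjusted p = 0.3733 by limma). Septin9, another filament-forming GTPase, differed by -0.36 ± 0.09 (SE, adjusted p = 0.3733), also with no overlap.

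Tp53i11, a target of p53, had the smallest p of the lower genes. It read 438, 499.7, 501, 474 and 414 in C and 353, 350, 399, 374 and 308 in CI, with a difference of -0.39 ± 0.08 (SE, adjusted p = 0.1343 by limma). Its groups did not overlap, and the CI median of 353 was below the medians of 437 in S, 451 in SI, 466 in T10 and 431 in T20. Mboat7, which loads arachidonate onto phosphatidylinositol, differed by -0.40 ± 0.10, and Gtf2ird1, a transcription factor, by -0.40 ± 0.10. Stk40, a kinase-like protein, differed by -0.38 ± 0.09, Tfpt, a subunit of the INO80 chromatin remodeller, by -0.39 ± 0.10 and Ncapd2, a condensin subunit, by -0.41 ± 0.11 (SE, adjusted p = 0.3733 for each of these 5, limma).

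The markers of Kupffer cells, the resident macrophages of the liver, had mostly lower means in CI. Of 14 Kupffer cell and macrophage markers, all tested, 13 had a lower mean in CI, beside 5801 of all 10699 genes. The median difference was -0.24, beside -0.015 over all genes. At an unadjusted p under 0.05, 4 of the 14 were lower and 0 higher, beside 5.94% of all genes lower and 2.81% higher. Their summed intensity was 44171 to 48889 on the C arrays and 33193 to 44446 on the CI arrays, with a small overlap, and none of the 14 was at 0. The part of macrophages in the differences of the leading genes was not tested. With arrays set to equal median and spread, the median of the list was -0.17 with 12 of 14 lower.

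Cd68, a lysosomal glycoprotein of macrophages, was the marker of smallest p. It read 1827, 2256, 2262, 2071 and 1629.6 in C and 1497, 1711, 1319.6, 1191 and 1686 in CI. The highest CI arrays overlapped with the lowest C array, and the difference was -0.44 ± 0.14 (SE, adjusted p = 0.4234 by limma). The complement genes C1qb and C1qc differed by -0.24 ± 0.11 and -0.30 ± 0.13, and Csf1r, the receptor of the macrophage growth factor, by -0.27 ± 0.12. The median of the same markers between SI and S was -0.054. Of 7 tested lymphocyte markers 4 were lower (median -0.26), beside 5801 of all 10699 genes. None of the 7 had an unadjusted p under 0.05, beside 5.94% of all genes lower and 2.81% higher.

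Stellate cell and fibroblast markers had lower means for 7 and higher means for 6 of 13 genes, with a median of -0.066 that ranged from -0.15 to 0.015 when any 1 of the 10 arrays was left out. At an unadjusted p under 0.05, 3 were lower, beside 5.94% of all genes, and 0 higher. These were Acta2, the smooth muscle actin of activated stellate cells, at -0.31 ± 0.11, Pdgfrb at -0.33 ± 0.13 and Vim at -0.22 ± 0.11 (SE). Their summed intensity overlapped fully, at 22760 to 26094 in C and 18291 to 27384 in CI. The pericentral hepatocyte list had lower means for 8 of 10 genes (median -0.13, -0.047 under equal spread, and -0.20 to -0.053 with 1 of the 10 arrays left out), beside 5801 of all 10699 genes. In it were Glul, glutamine synthetase, at -0.31 ± 0.12 and Tbx3 at -0.28 ± 0.11. The 9 sinusoidal endothelium markers had a median of -0.094 and 0 with an unadjusted p under 0.05, beside 5.94% of all genes lower and 2.81% higher.

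Cell division genes had mostly lower means in CI. Of 31 tested cell cycle genes, 22 had a lower mean, beside 5801 of all 10699 genes, and the median was -0.15. At an unadjusted p under 0.05, 6 were lower and 0 higher, beside 5.94% and 2.81% of all genes. The median was -0.22 with arrays set to equal spread, and between -0.27 and -0.056 when any 1 of the 10 arrays was left out. The same list had a median of -0.018 between SI and S. No member passed the adjusted threshold.

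Ccnb2, the mitotic cyclin B2, read 1029, 1129.9, 1062, 1387 and 1046 in C and 879, 647, 707, 921 and 672 in CI. The groups did not overlap, and the difference was -0.57 ± 0.18 (SE, adjusted p = 0.4178 by limma). C was again the group set apart from the rest, since the other 4 diets ranged from 389 to 969.8. Foxm1, the transcription factor that switches on mitotic genes, read 280.3, 296, 256, 299.8 and 242 in C and 237, 235, 179, 230.2 and 204 in CI. Its groups did not overlap either, with a difference of -0.35 ± 0.10 (SE, adjusted p = 0.4053). The mitotic kinesin Kif20a, the ubiquitin carrier Ube2c and the mitotic kinases Aurka and Plk1 differed by -0.60 ± 0.19, -0.66 ± 0.29, -0.56 ± 0.25 and -0.37 ± 0.15 (SE).

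**Figure D3:**
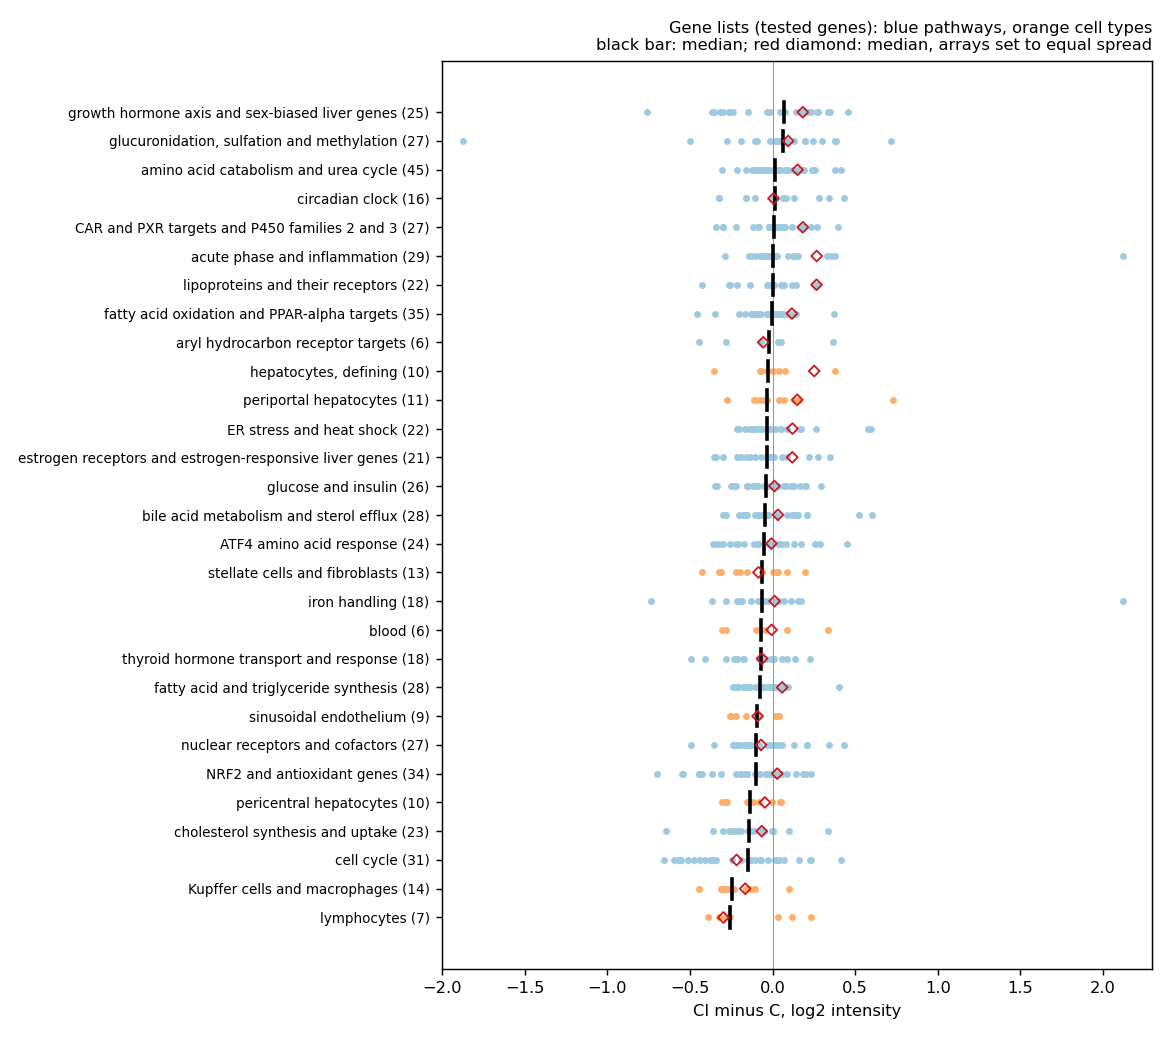
Differences between CI and C (log2 intensity, x axis) of the tested genes of each list (points, with their number in brackets); black bars are list medians and red diamonds the medians with arrays set to equal median and spread. Macrophage, lymphocyte and cell cycle lists lie lowest, with medians of -0.24, -0.26 and -0.15 beside -0.015 over all genes, and several hepatic lists move above 0 under equal spread.

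Genes through which isoflavones are known to act did not pass, where 0 of all 10699 genes (0%) passed. The estrogen receptor genes Esr1 and Esr2 were on the array but below the filter on dim probe sets, so their level was not tested. Of 21 tested estrogen-responsive liver genes, 14 had a lower mean in CI, beside 5801 of all 10699 genes. Their median was -0.035 and turned to 0.12 with arrays set to equal spread. At an unadjusted p under 0.05, 1 was higher and 1 lower, beside 2.81% and 5.94% of all genes. Hsd17b10, a mitochondrial dehydrogenase of steroids and branched-chain fatty acids, differed by 0.22 ± 0.11. Serpina6, which carries glucocorticoid in plasma, read 25287, 26226, 24661, 21376 and 24073 in C and 18615, 19692, 23077, 16563 and 21151 in CI. Its groups overlapped, and the difference was -0.30 ± 0.12 (SE, adjusted p = 0.496 by limma). Serpina6 was lower still in the soy protein groups, at 11982 to 16019.5 in S and 14384 to 19272 in SI. The tofu diets overlapped with C, at 19476 to 30007 in T10 and 17413 to 25525 in T20. The prolactin receptor Prlr, an estrogen-induced gene of the liver, and Sult1e1, the estrogen sulfotransferase, differed by -0.35 ± 0.33 and 0.06 ± 0.30.

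Xenobiotic and conjugation genes, which handle isoflavones themselves, did not pass either, like all other tested genes. Of 27 tested genes of glucuronidation, sulfation and methylation, 20 had a higher mean in CI, beside 4898 of all 10699 genes, with a median of 0.061. The median was 0.073 with quantile normalization, 0.094 with equal spread and -0.009 with each array centred on its median, a setting that lowers all genes alike. Only Ugdh in that list, which makes the sugar donor for glucuronidation, had an unadjusted p under 0.05, at -0.28 ± 0.11. Of all genes 5.94% were lower and 2.81% higher at that threshold. Sult1a1, the main phenol sulfotransferase, differed by 0.20 ± 0.12 and Ugt2b15 by 0.38 ± 0.20. Of 27 genes of the CAR and PXR receptors and P450 families, the median was 0.010 as deposited. The median of this list was 0.18 under equal spread, with 5 of 27 lower. Its gene of smallest p, Cyp3a23-3a1, the classic PXR target, differed by 0.39 ± 0.16 (SE, adjusted p = 0.4967 by limma).

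Of 6 tested targets of the aryl hydrocarbon receptor, 3 were higher and 3 lower. Cyp1a2, its main hepatic target, read 10351, 11630.2, 13694, 11799 and 8513 in C and 8323, 9268, 10945, 8155 and 9111 in CI. The groups overlapped, and the difference was -0.28 ± 0.16 (SE, adjusted p = 0.6446 by limma, 95% interval -0.61 to 0.05). Cyp1b1 differed the other way, by 0.37 ± 0.17. Cyp1a1 was below the filter.

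The antioxidant genes of the NRF2 regulator had mostly lower means in CI as deposited. Of 34 tested, 25 had a lower mean (median -0.10), beside 5801 of all 10699 genes. At an unadjusted p under 0.05, 5 were lower and 0 higher, beside 5.94% and 2.81% of all genes. With arrays set to equal spread the median turned to 0.028 with 15 lower, so the direction of the list depends on the scaling. Akr7a3, an aldehyde reductase, read 7532, 3133, 2954, 5170.4 and 2270.3 in C and 3101, 1799, 2129, 2810.4 and 2162 in CI. The C arrays were spread over a wide range that took in the highest CI arrays, and the difference was -0.70 ± 0.25 (SE, adjusted p = 0.4673 by limma). Txnrd1, thioredoxin reductase, differed by -0.43 ± 0.17, with its highest value, 6169.8, on the same C array that was highest for Akr7a3, C replicate 1. Without that array the Txnrd1 difference was -0.21. Hmox1, Abcc4 and Keap1 differed by -0.37 ± 0.18, -0.31 ± 0.15 and -0.16 ± 0.07. Nqo1, the classic NRF2 target, differed by -0.44 ± 0.31, with a 95% interval of -1.09 to 0.20.

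Lipid genes, the best known targets of soy diets in liver, did not pass with isoflavone alone, and neither did any other tested gene. Of 28 tested genes of fatty acid and triglyceride synthesis, 21 had a lower mean (median -0.078), beside 5801 of all 10699 genes. Under equal spread 9 had a lower mean and the median was 0.058. At an unadjusted p under 0.05, 2 were lower and 0 higher, beside 5.94% and 2.81% of all genes. These were Slc25a1, the citrate carrier, at -0.23 ± 0.10 and Mlxipl, the carbohydrate-sensing transcription factor ChREBP, at -0.24 ± 0.12. Fatty acid synthase, Fasn, differed by -0.22 ± 0.47 with a 95% interval of -1.17 to 0.74, which does not leave out a 2-fold change. Srebf1, Acaca, Scd and Me1 differed by -0.10 ± 0.36, -0.09 ± 0.18, -0.03 ± 0.28 and -0.17 ± 0.19. Pnpla3, a lipase induced by feeding, differed by 0.40 ± 0.48.

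Of 35 tested fatty acid oxidation genes and targets of PPAR-alpha, 17 had a higher and 18 a lower mean, with a median of -0.002. Under equal spread 11 had a lower mean and the median was 0.12. Ppara itself differed by -0.03 ± 0.18 and Cpt1a, the gatekeeper of mitochondrial oxidation, by -0.07 ± 0.29. Ucp2, a mitochondrial carrier, was the gene in the list with an unadjusted p under 0.05, at -0.35 ± 0.14. At that threshold 5.94% of all genes were lower and 2.81% higher. Among lipoprotein genes, Apoc2, the activator of lipoprotein lipase, differed by 0.27 ± 0.08 (SE, adjusted p = 0.4178 by limma), and Pltp, the phospholipid transfer protein, by -0.43 ± 0.17. The lipoprotein list as a whole had 12 of 22 genes higher, beside 4898 of all 10699 genes, with a median of 0.002. Under equal spread its median was 0.27, with 6 of 22 lower.

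Cholesterol synthesis and uptake genes had lower means for 19 of 23 tested, beside 5801 of all 10699 genes, with a median of -0.14. At an unadjusted p under 0.05, 1 was lower and 0 higher, beside 5.94% and 2.81% of all genes. The median of the list was negative under every scaling, at -0.066 to -0.21, with 14 of 23 lower under equal spread. Leaving out 1 of the 10 arrays gave medians of -0.20 to -0.014. Between SI and S its median was 0.13, the opposite direction. Lss, which closes the sterol ring, had the smallest p. It read 1535, 1902, 2332, 2228 and 1955 in C and 1477, 1512, 1781, 746 and 1057 in CI, with some overlap and a difference of -0.65 ± 0.29 (SE, adjusted p = 0.5405 by limma). Of 28 bile acid and sterol efflux genes, 0 had an unadjusted p under 0.05 in either direction, beside 5.94% of all genes lower and 2.81% higher. Cyp7a1, the first enzyme of bile acid formation from cholesterol, differed by -0.28 ± 0.59 and the sterol exporters Abcg5 and Abcg8 by -0.04 ± 0.35 and 0.15 ± 0.42.

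Nuclear receptors and their cofactors had 19 of 27 lower means (median -0.10, and -0.070 under equal spread), beside 5801 of all 10699 genes. At an unadjusted p under 0.05, 3 were lower and 0 higher, beside 5.94% and 2.81% of all genes. Ncor1, the corepressor of thyroid and other receptors, read 1399, 1472, 1475, 1393 and 1533 in C and 1148, 1289, 1246, 1364 and 1234 in CI. Its groups did not overlap, and the difference was -0.21 ± 0.08 (SE, adjusted p = 0.473 by limma). Hnf4a, the master regulator of hepatocyte identity, differed by -0.36 ± 0.14 and Rara by -0.16 ± 0.07.

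The added isoflavone was also fed with soy protein, in arrays that the casein comparison does not use. SI against S likewise gave 0 of 18625 (0%) at an adjusted p under 0.05 (limma), with 664 (3.57%) at an unadjusted p under 0.05. The 10 higher leading genes had a median SI minus S difference of -0.069, with 4 of 10 in the same direction as with casein. The 10 lower ones had a median of 0.043, with 2 of 10 in the same direction. Hsd11b1 differed by 0.05 ± 0.10 with soy protein and Cyp17a1 by -0.16 ± 0.24.

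**Figure D4:**
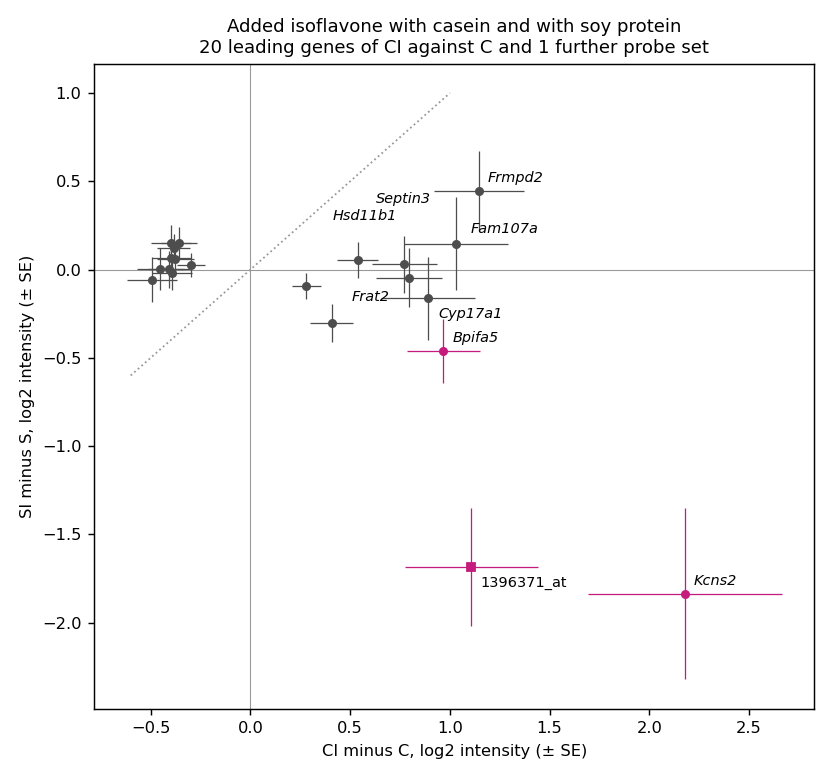
Differences with added isoflavone on soy protein (SI minus S, y axis) against casein (CI minus C, x axis), both in log2 intensity with SE bars, for the 20 leading genes and 1 probe set without a gene symbol; the dotted line marks equal differences. Most leading genes lie near 0 on the soy axis, and the 3 probe sets in magenta, whose differences between proteins passed, lie below 0 on it.

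The difference between both isoflavone effects, (CI minus C) minus (SI minus S), passed for 3 of 18625 probe sets (0.0161%; limma, adjusted p under 0.05), while 1716 (9.21%) had an unadjusted p under 0.05. The largest was that of Kcns2, a subunit that modifies voltage-gated potassium channels and forms none by itself. Kcns2 read 124, 97.9, 176, 178 and 189 in C and 797, 337, 778, 713 and 912 in CI. With soy protein it read 115, 752, 406, 326 and 861 in S and 76.8, 65.1, 304, 72.3 and 155 in SI. It was thus higher on all CI than on all C arrays, and mostly lower in SI than in S, with overlap. The casein difference was 2.18 ± 0.49, the soy difference -1.84 ± 0.49 and the difference between them 4.01 ± 0.69 (SE, adjusted p = 0.0262 by limma). T20 arrays alone spanned 144 to 732, so the gene varied widely between animals of 1 diet.

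Bpifa5, of the BPI-fold family of secreted lipid-binding proteins, read 275, 279, 286, 251 and 166 in C and 554, 429.6, 497, 528 and 415 in CI. On soy protein it read 342, 398, 309, 493 and 428 in S and 280.2, 296, 316, 361 and 188 in SI. The CI arrays were all above the C arrays, and the SI arrays were on the whole below the S arrays, with overlap. The casein difference was 0.97 ± 0.18, the soy difference -0.46 ± 0.18 and the difference between them 1.43 ± 0.26 (SE, adjusted p = 0.03971 by limma). With array weights the casein difference of Bpifa5 passed by itself, at an adjusted p of 0.03803.

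The last was the probe set 1396371_at, which has no gene symbol in the annotation used. It read 233, 116, 136, 84.2 and 268 in C and 304, 365, 335, 346 and 301 in CI, with no overlap. With soy protein it read 164, 304, 237, 253 and 207 in S and 70.8, 129, 73.3, 60.8 and 44.4 in SI, again with no overlap and in the other direction. The casein difference was 1.11 ± 0.33, the soy difference -1.68 ± 0.33 and the difference between them 2.79 ± 0.47 (SE, adjusted p = 0.0262 by limma). All 3 are dim. For Kcns2 and 1396371_at the C means, at 7.21 and 7.25 log2 units, were below the filter level of 7.39. Their SI means, at 6.80 and 6.15, were below it as well. These probe sets were thus tested partly through their level in CI and other diets, and both of their differences rest on a group below the filter level.

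The number of calls changed when single arrays were left out, and the reason was not tested. No probe set passed without C replicate 2 or 4, without CI replicate 1, 3, 4 or 5, without S replicate 2, 4 or 5, or without SI replicate 1, 4 or 5. The number was 1 without SI replicate 2 and 5 without C replicate 1. Leaving out both C replicate 3 and CI replicate 3 also gave 0, and a fit of the 4 compared groups alone gave 1, the unnamed probe set. The difference itself kept its direction under all alternatives tried, at 3.73 to 4.46 for Kcns2, 1.28 to 1.52 for Bpifa5 and 2.58 to 3.01 for 1396371_at.

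**Figure D5:**
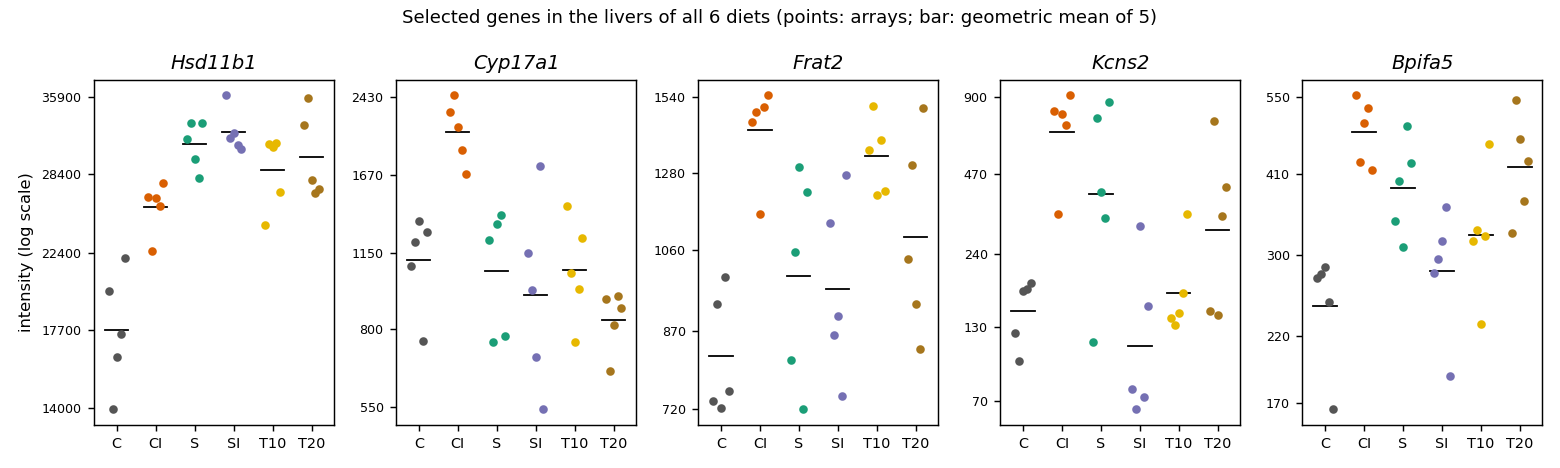
Intensities (log scale, y axis) of Hsd11b1, Cyp17a1, Frat2, Kcns2 and Bpifa5 on all 30 arrays, by diet; points are arrays and bars geometric means of 5. For Hsd11b1 the 5 C arrays are the lowest of all 30, for Cyp17a1 the CI arrays lie highest and overlap with 1 SI array, and for Kcns2 the arrays of S and T20 spread over the whole range between C and CI.

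Across the leading genes, the other diets lay about as often nearer to CI as to C. The mean of the other 4 diets was nearer to CI for 11 of the 20 and nearer to C for 9. Among them C lay beyond all 25 other arrays for 2, Hsd11b1 and Wipf1, and CI for 0. Over all 10699 genes C lay below all 25 for 1 gene and above them for 2. The same count for CI over all genes was not made. The 20 genes were picked by their p between C and CI, so these counts are descriptions.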

How the data were processed

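Liver RNA of 30 rats was labelled with biotin as cRNA and hybridised to 1-colour Affymetrix arrays, per the labels' protocols. The authors deposited 1 linear intensity per probe set and array, which per the labels came from the SuperNORM data service. No source used here states the reference level of that scale, so folds hold on it alone. From 31099 rows, 57 controls were left out, a floor of 16 and log2 were applied, and probe sets above the 40th percentile of the mean were kept. Symbols came from the platform annotation (20832 probe sets with 1 symbol, 436 with several, 9831 with none; 20764 matched to a current record).

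A limma 3.58.1 model (R 4.3.3) with 1 mean per diet took in all 30 arrays (24 residual degrees of freedom, mean-variance trend, two-sided), with Benjamini-Hochberg adjustment over all tested probe sets, and single genes were also tested with the exact permutation test. The p-values measure the spread between the 5 rats of a diet, which the labels call biological replicates, and the number of arrays limits their precision. Named were the 10 genes of smallest p in each direction, a fixed set of lipid, estrogen and xenobiotic genes (19 of 26 tested), and the genes of smallest p of 33 lists (2 per pathway, 1 per cell type); other list genes given with values have an unadjusted p under 0.05. Of the leading lower genes, 1 is plotted and counted but not described further. The comparison, the genes and the lists were chosen with earlier results of these data known, and lists are described with no test. The deviations of same-numbered C and CI arrays correlated at -0.05 to 0.123. Arrays of different numbers were not set beside them, so whether the replicate numbers mark arrays handled together was not tested. Figures were drawn with matplotlib 3.10.9.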

Additional observations from a re-analysis of the deposited data

Results flagged for a closer look

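For 3 probe sets the difference made by added isoflavone differed between casein and soy protein, by a test of that difference in the limma fit: 4.01 on the log2 scale for Kcns2, 2.79 for 1396371_at and 1.43 for Bpifa5. In each the mean was higher with isoflavone on casein and lower with isoflavone on soy protein.

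Of 182 groups of 5 arrays examined among the named genes, 15 held 1 array far from the other 4, and chance marks about 5% of groups. Among the leading genes these were low arrays: C replicate 5 for Bpifa5 at 165.8, CI replicate 3 for Frat2 at 1158.3, and CI replicate 2 for Kcns2 at 337.4 and Fam107a at 180.9. Tfpt was low on C replicate 1 at 263.9 and on CI replicate 1 at 202.2. C replicate 3 was low for Cd4 at 330.6 and high for Hsf1 at 500.9. CI replicate 3 was high for the iron transporter gene Slc11a2 at 1139.8 and low for Cdh17 at 215.5. CI replicate 5 was low for Igfals at 6474.9 and Pnpla3 at 1716.1 and high for Mthfd2 at 509.1. Glul was low on C replicate 2 at 4821, and Cyp3a23-3a1 was high on C replicate 1 at 16373.8.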

How the results depend on the processing

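For CI against C, 0 probe sets passed under most alternatives; the count was 1 with no filter on dim probe sets (Brinp2), 4 with array weights (Hsd11b1, Bpifa5, Frmpd2 and 1368180_s_at), and 0 to 3 with 1 array left out, of which 1 without C replicate 1 (1368180_s_at) and 3 without C replicate 5 (Hsd11b1, 1377531_at and 1396260_at). At an unadjusted p under 0.01 there were 395, and 110 for SI against S, which otherwise stayed at 0. The count for the difference between both proteins, 3 as reported, was 0 with a 60th percentile filter or with C replicate 3 and CI replicate 3 left out, 1 with the compared groups alone, 0 to 5 with 1 array left out and 376 at an unadjusted p under 0.01. With the replicate number as a block, counts were 0 for CI against C, 0 for SI against S and 1 (Kcns2) for the difference. Whether the numbers pair the arrays was not tested.

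Of 88 named genes, 12 changed sign under some alternative, none of them among the 20 leading genes. With equal median and spread, signs turned for Hadh (0.10), Acaca (0.026), Srebf1 (0.067), Cpt1a (0.10) and Scd (0.22). Other turns were Hadh as the mean of its probe sets (0.11), Srebf1 with array weights (0.043), Sult1e1 with quantile normalization (-0.023) and median centring (-0.011), and Abcg5 with C replicate 3 and CI replicate 3 left out (0.10). With 1 array left out the difference ranged from -0.22 to 0.025 for Acaca, -0.53 to 0.073 for Cyp7a1, -0.44 to 0.19 for Fasn, -0.047 to 0.19 for Fmo1 and -0.032 to 0.36 for Abcg8. It ranged from -0.27 to 0.12 for Srebf1, -0.20 to 0.034 for Cpt1a, -0.26 to 0.23 for Sult1e1, -0.14 to 0.067 for Ppara, -0.28 to 0.25 for Abcg5 and -0.13 to 0.12 for Scd. The cause was not tested. The dimmest of the 4 brightness classes had the largest median standard error, at 0.169. Of the genes that changed sign, Abcg8 had C and CI means below the filter level. Fasn, Srebf1, Cpt1a and Scd were bright and had standard errors of 0.47, 0.36, 0.29 and 0.28.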

Other observations

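The largest difference of any tested gene was that of Ubd, a ubiquitin-like protein induced by inflammatory cytokines, which was looked at after its values were seen. Ubd read 3560, 4781, 2608, 4243 and 5001 in C and 1517, 3492, 102, 158 and 229.7 in CI. The groups overlapped on 1 CI array, and the other CI arrays were all below C. The difference was -3.11 ± 0.88 (SE, adjusted p = 0.3847 by limma), and that between SI and S was -0.75 ± 0.88. Hamp, the iron hormone hepcidin, differed the other way, with 2126, 274, 872, 2629.6 and 1114 in C and 5045, 5112, 15515, 16889.7 and 342 in CI. Its groups overlapped, and the difference was 2.12 ± 0.87 (SE, adjusted p = 0.4967). In the tofu diets Hamp was low on every array, at 190 to 341 in T10 and 171 to 255 in T20, while S reached 28305.

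Acute phase genes had a median difference of 0.002 over 29 genes, with 3 higher and 0 lower at an unadjusted p under 0.05, beside 2.81% and 5.94% of all genes: Hamp, Apcs (0.36 ± 0.13) and Orm1 (0.33 ± 0.16). The median of this list depended on the scaling. It was 0.27 under equal spread, with 4 of 29 lower, and -0.068 with each array centred on its median. Of 45 genes of amino acid catabolism and the urea cycle, 25 were higher, beside 4898 of all 10699 genes. Among them Gnmt, which disposes of excess methyl groups, differed by 0.41 ± 0.15. The median of the 45 was 0.017 as deposited and 0.15 under equal spread, where 5 were lower. The other pathway lists had medians of 0.067 for the growth hormone axis, 0.016 for the circadian clock, -0.033 for ER stress and heat shock, -0.039 for glucose and insulin, -0.055 for the ATF4 response, -0.067 for iron handling and -0.073 for thyroid hormone. Among the cell lists, medians were -0.030 for defining and -0.031 for periportal hepatocyte markers, -0.073 for blood and -0.031 for adipose tissue. The bile duct, exocrine pancreas and intestine and kidney lists had 3, 2 and 2 tested genes. With equal spread, the medians of the ER stress, glucose, iron, defining hepatocyte and periportal lists turned above 0. That of the growth hormone axis was then 0.18. No gene of these lists passed the adjusted threshold.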
